A study of Homo sapiens with 7 samples.

Results

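The 56 genes described here lie on the long arm of human chromosome 14 and were chosen by name, in order from the centromere towards the telomere. They are 56 of 17502 genes with enough counts to be tested and of 63677 genes in the count table, and all 56 passed the filter on low counts. The list was drawn up with earlier results of these libraries known, so its members' own values are a description and support nothing about the list. A further 527 tested genes of chromosome 14 are not on it.

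Chromosome 14 is an acrocentric chromosome, so nearly all of its protein-coding genes sit on the long arm. Genes of one chromosome arm share a stretch of DNA rather than a pathway, and the RNA of many genes along a stretch can differ together between lines of a tumour whose chromosomes differ in copy number. DNA was not measured in the counts used here, so chromosome copies and RNA output per copy cannot be told apart.

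RNA-seq counts were available for 7 libraries of T47D, an established human breast cancer cell line that expresses the estrogen receptor. Of these, 3 came from parental cells, which are sensitive to palbociclib, an inhibitor of the cell cycle kinases CDK4 and CDK6. Clone 4 and clone 2, each represented by 2 libraries, are resistant derivatives grown in palbociclib that was raised from 1 to 5 uM over 6 months, and the labels name no engineered genetic change in any group. The protocols state that experiments were run without the drug unless noted, so resistance and past exposure to the drug cannot be told apart, and each resistant group is a single clone.

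Library totals ranged from 10997625 to 17524621 counts. All 8 luminal breast markers had counts in every group, summing to 13591 to 17182 TMM-scaled CPM (edgeR, counts scaled to a common library size) in parental cells, 11105 to 11961 in clone 4 and 10504 to 10837 in clone 2. The summed level of 5 fibroblast markers was 39.2 to 41.4 CPM in parental libraries, 70.8 to 99.3 in clone 4 and 136 to 143 in clone 2. PDGFRB was at 0 counts in parental cells and clone 4, and COL1A2 at 0 counts in clone 4. Leukocyte markers summed to at most 3.64 CPM and endothelial markers to at most 0.727 CPM in any library, with TYROBP and PECAM1 at 0 counts throughout. The part of these marker levels in the results below was not tested.

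The 56 genes together took 0.499%, 0.456% and 0.550% of all counts in the parental libraries, 0.660% and 0.584% in clone 4, and 0.681% and 0.693% in clone 2. The groups did not overlap in this share. All tested and untested chromosome 14 genes together took 2.25% to 2.33% of counts in parental cells, 3.01% and 3.24% in clone 4, and 3.37% and 3.39% in clone 2. Chromosome 14 RNA was therefore a larger share of the total in each resistant library than in any parental one.

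Against parental cells, 33 of the 56 genes were called higher in clone 4 and 0 lower, at a Benjamini-Hochberg adjusted p below 0.05 in edgeR's quasi-likelihood test over all genes. Across all 17502 genes tested, 44.4% were called in either direction in this comparison, 22.1% higher and 22.3% lower. At an unadjusted p below 0.05, 1 member was lower, and DESeq2 called 1 lower, KTN1. The members were picked with these contrasts known, so nothing is read from that difference. Their median log2 fold change was 0.36, a 1.29-fold higher level, with a range from -0.39 to 1.45 and 51 genes above 0. Over all genes tested the median was 0.01. The median of the members was 0.27 without clone 4 replicate 1 and 0.45 without replicate 2, so the size of the shift depended on the library.

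Clone 2 gave 34 genes called higher and 1 lower, against 21.7% and 20.8% of all genes tested, 42.5% together. The median log2 fold change was 0.39, or 1.31-fold, with a range from -0.30 to 1.12, and 51 genes were again above 0. The gene called lower was RDH11. Both comparisons used the same parental libraries, so the values of the clones are set side by side here and are not independent of each other. Whether a call held with each library left out was counted for the members only. No share of all genes therefore stands beside the counts that follow. Of the genes called higher, 24 in clone 4 and 22 in clone 2 were still called in each of the 7 fits that left out a single library.

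Without any model, both clone 4 libraries lay above all 3 parental libraries for 42 of the 56 genes, and below them for 0. Among all genes tested, 31.1% lay above and 30.2% below in this way. Both clone 2 libraries lay above the parental ones for 43 genes, as did 34.2% of all genes tested. They lay below for SRP54, FKBP3 and RDH11, against 31.6% of all genes tested. The remaining 14 genes in clone 4 and 10 in clone 2 overlapped the parental range.

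Exons of 39 of the 56 members overlap those of another annotated gene (GENCODE release 29), 13 on the same strand and 30 on the opposite strand. The counts of those members may therefore hold reads of their partners.

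**Figure D1:**
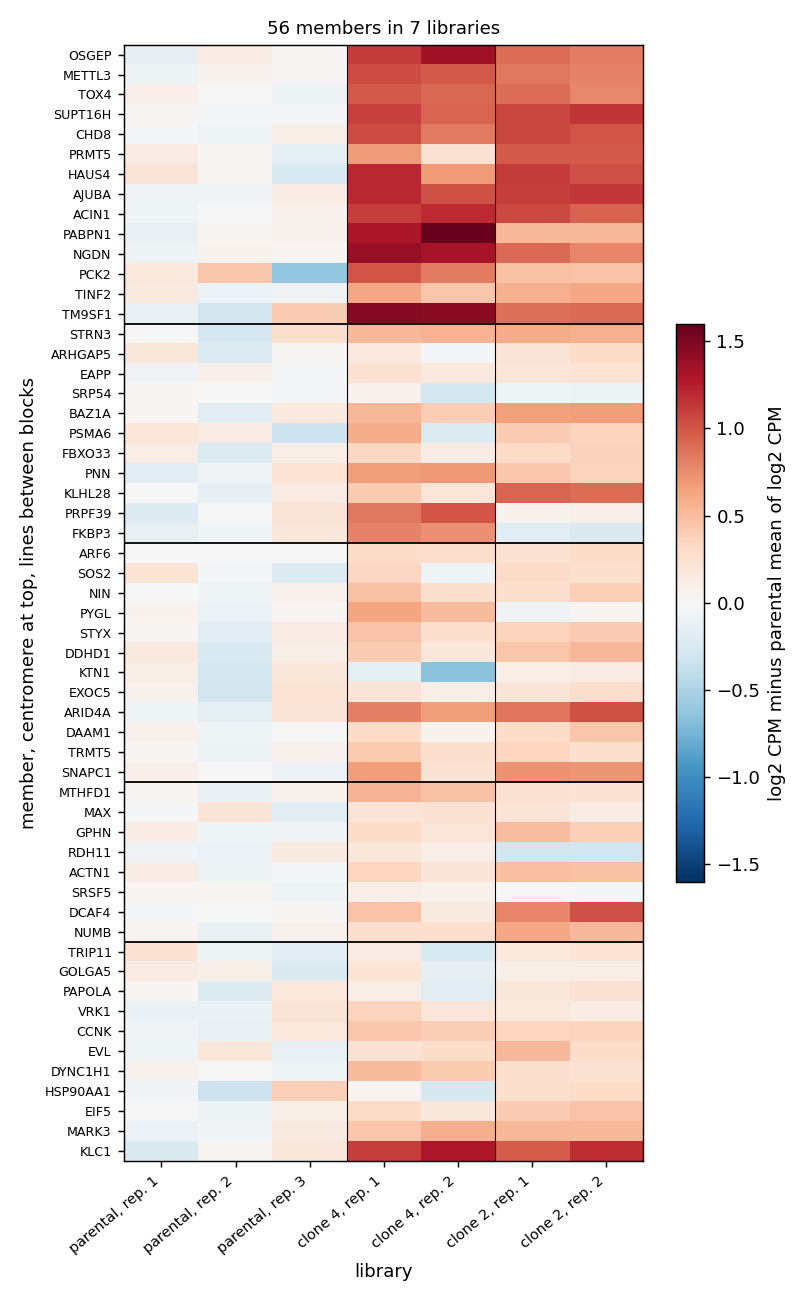
Heat map of the 56 genes (vertical axis, centromere at the top) in the 7 libraries (horizontal axis), coloured by log2 TMM-scaled CPM minus the parental mean of log2 CPM. Most of the top 14 genes, and KLC1 at the bottom, are the most deeply coloured in both clones, and below them single genes such as FKBP3 and PRPF39 are raised in clone 4 and not in clone 2.

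The rise was not even along the chromosome. The 56 genes were divided in gene order into 5 blocks, named by the cytogenetic bands of these listed genes. The most centromeric block, q11-q12, holds 14 of them, and 14 were called higher in clone 4 and 13 in clone 2. Among all genes tested, 22.1% and 21.7% were called higher. The median log2 fold changes of the block's members were 1.01 and 0.86. In this block the median log2 difference from the parental mean was 1.10 and 0.95 in the clone 4 libraries and 0.89 and 0.83 in the clone 2 libraries, against -0.04, 0.02 and 0.02 in the parental libraries. The resistant libraries thus lay close to double the parental level for the typical gene of the block, and no parental library came near them.

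The other 42 members, beyond q11-q12, had lower medians, though some of them, such as KLC1, exceeded q11-q12 members such as TINF2. Of these 42, 19 were called higher in clone 4, and 21 higher and 1 lower in clone 2. Among all genes tested, 22.1% were called higher in clone 4, and 21.7% higher and 20.8% lower in clone 2. The median log2 fold changes of the 42 members were 0.27 and 0.31. By block, the medians in clone 4 and clone 2 were 0.31 and 0.34 for 11 genes in q12-q21, 0.32 and 0.31 for 12 genes in q21-q23, 0.26 and 0.33 for 8 genes in q23-q24, and 0.25 and 0.25 for 11 genes in q32. The medians of those 4 blocks lay close together, and all were below that of q11-q12.

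Promoter sequences are shown for genes that stand for the main patterns: OSGEP and SUPT16H from the raised q11-q12 block, FKBP3 for a gene high in clone 4 only by its values, and SRSF5 for a gene close to parental level in both clones. Each runs 5′ to 3′ on the gene's own strand, from 250 bases before to 50 bases after the annotated start (RefSeq, GRCh38.p14). The windows are chr14:20454763-20455062 on the minus strand for OSGEP, chr14:21383970-21384269 on the minus strand for SUPT16H, chr14:45134432-45134731 on the minus strand for FKBP3, and chr14:69766892-69767191 on the plus strand for SRSF5. Capitals in OSGEP mark 87 bases that its window shares with the window of APEX1, a DNA repair endonuclease gene that starts next to it and is read the other way. Capitals in the other windows mark motif matches on either strand.
OSGEP: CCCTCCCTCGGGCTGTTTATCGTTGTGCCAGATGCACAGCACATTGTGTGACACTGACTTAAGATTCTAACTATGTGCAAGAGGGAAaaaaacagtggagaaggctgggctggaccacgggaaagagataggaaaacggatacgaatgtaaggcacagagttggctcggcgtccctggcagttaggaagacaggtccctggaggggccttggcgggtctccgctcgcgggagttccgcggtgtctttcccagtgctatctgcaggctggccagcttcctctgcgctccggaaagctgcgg
SUPT16H: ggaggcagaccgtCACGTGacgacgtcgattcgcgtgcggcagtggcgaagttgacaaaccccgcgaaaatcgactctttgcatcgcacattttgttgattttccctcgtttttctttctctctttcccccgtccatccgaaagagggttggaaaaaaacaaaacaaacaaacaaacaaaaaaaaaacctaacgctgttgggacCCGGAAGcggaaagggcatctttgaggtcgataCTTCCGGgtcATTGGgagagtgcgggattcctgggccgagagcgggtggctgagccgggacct
FKBP3: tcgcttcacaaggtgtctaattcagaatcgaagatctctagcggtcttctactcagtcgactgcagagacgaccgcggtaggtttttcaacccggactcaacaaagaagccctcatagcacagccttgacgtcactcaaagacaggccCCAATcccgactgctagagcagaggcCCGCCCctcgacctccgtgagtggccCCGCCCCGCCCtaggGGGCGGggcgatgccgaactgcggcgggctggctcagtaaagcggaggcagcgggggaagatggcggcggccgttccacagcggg
SRSF5: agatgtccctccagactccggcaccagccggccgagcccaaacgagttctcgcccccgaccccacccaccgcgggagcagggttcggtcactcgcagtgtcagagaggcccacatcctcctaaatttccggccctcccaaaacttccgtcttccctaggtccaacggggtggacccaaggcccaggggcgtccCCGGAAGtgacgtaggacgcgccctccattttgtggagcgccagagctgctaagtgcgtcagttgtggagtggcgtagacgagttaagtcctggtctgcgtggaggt

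Matches to 5 short motifs were sought on both strands, with overlapping matches counted, and no motif contains another. GGGCGG is the GC box. CCAAT is the box bound by NF-Y. CCGGAAG is the core of an ETS-type site. CACGTG is the E-box bound by MYC and MAX. TATAAA is the TATA box. SUPT16H had the E-box once, the ETS-type site at 2 places and the CCAAT box once. FKBP3 had the CCAAT box once and the GC box at 4 places, SRSF5 had the ETS-type site once, and OSGEP had 0 matches. A promoter entry was matched for 50 of the 56 genes, with 66 windows in all, and BAZ1A, FBXO33, PRPF39, VRK1, TM9SF1 and EAPP were not matched. The GC box was in 72.7% of the members' windows, 45.0% of 35116 windows of all genes and 64.4% of 15427 windows of tested genes. The shares in the same order were 40.9%, 34.6% and 34.6% for the CCAAT box, 28.8%, 10.3% and 15.9% for the ETS-type site, 6.06%, 7.26% and 9.15% for the E-box, and 4.55%, 11.5% and 6.43% for the TATA box. Within the list, 5 of 13 matched q11-q12 genes and 13 of 37 matched genes beyond it held the ETS-type site. A match describes the letters of the window and says nothing of binding.

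The q11-q12 genes include several regulators of chromatin and RNA. SUPT16H encodes the large subunit of FACT, which takes nucleosomes apart ahead of RNA polymerase. It stood at 49.7, 47.7 and 47.9 CPM in the parental libraries, 104 and 92.1 in clone 4, and 101 and 107 in clone 2. Both clones were about double the parental level, with no overlap, at log2 fold changes of 1.02 (SE 0.0979) and 1.11 (SE 0.0975). ACIN1, a nuclear protein of the exon junction and splicing machinery, had 89.9, 94.8 and 98.9 CPM in the parental libraries, 203 and 216 in clone 4, and 197 and 181 in clone 2. Its log2 fold changes were 1.15 (SE 0.0949) and 1.00 (SE 0.0951), and the 2 clones again lay well above every parental library.

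CHD8, a chromatin remodelling ATPase, was called higher by 0.94 in clone 4 and 1.03 in clone 2 on the log2 scale. TOX4, an HMG-box subunit of a PP1 phosphatase complex on chromatin, rose by 0.95 and 0.83. METTL3, the catalytic subunit of the writer of N6-methyladenosine on mRNA, rose by 1.01 and 0.81. METTL3 and TOX4 have overlapping exons on opposite strands, and the strand setting of the counting is not given in the sources used here, so their reads cannot be told apart. PRMT5, the main symmetric arginine methyltransferase, was at 35.1, 33.0 and 28.8 CPM in the parental libraries, 51.7 and 37.9 in clone 4, and 63.5 and 63.4 in clone 2. Clone 2 was higher than clone 4 for this gene, at 0.97 (SE 0.132) against 0.47 (SE 0.135), and the clone 4 call was lost without clone 4 replicate 1, at 0.23.

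**Figure D2:**
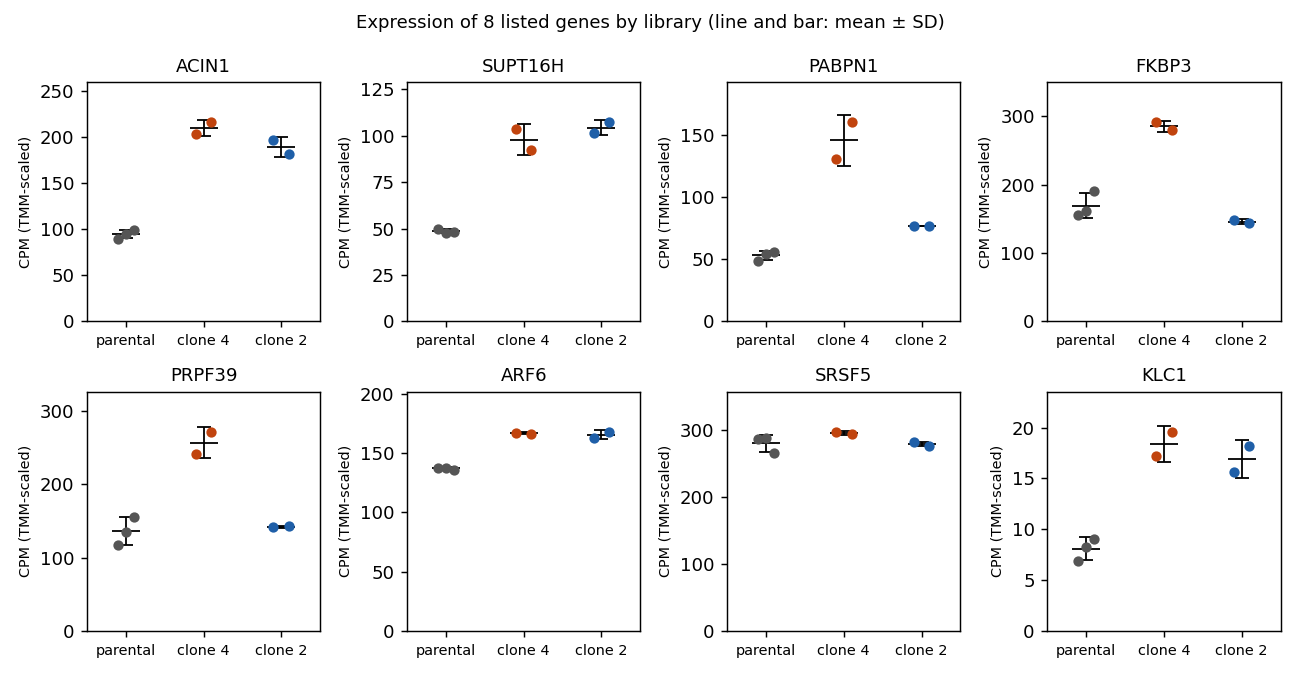
TMM-scaled CPM (vertical axis, linear, starting at 0) of ACIN1, SUPT16H, PABPN1, FKBP3, PRPF39, ARF6, SRSF5 and KLC1 in each library, by group, with a point per library, a line for the mean and error bars for the SD (3 parental, 2 clone 4 and 2 clone 2 libraries). ACIN1, SUPT16H and KLC1 are high in both clones, PABPN1 is highest in clone 4, FKBP3 and PRPF39 are high in clone 4 only by their values, and SRSF5 sits close to the parental level.

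The largest log2 fold change of any member was that of PABPN1 in clone 4. PABPN1 encodes the nuclear poly(A)-binding protein that sets the length of poly(A) tails. It was at 49.1, 54.7 and 55.9 CPM in the parental libraries, 131 and 161 in clone 4, and 77.1 and 77.1 in clone 2. All resistant libraries lay above the parental ones, and clone 4 far more so, at 1.45 (SE 0.109) against 0.53 (SE 0.111) in clone 2. Its exons overlap those of the read-through gene BCL2L2-PABPN1 on the same strand, whose reads cannot be told apart from its own, and the neighbour BCL2L2 rose by 1.15 and 1.05.

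NGDN, which takes part in ribosome assembly, had 18.2, 20.2 and 19.7 CPM in the parental libraries, 50.9 and 48.5 in clone 4, and 36.3 and 33.2 in clone 2. As for PABPN1, clone 4 was highest and clone 2 lay between, with log2 fold changes of 1.36 and 0.84. OSGEP, the catalytic subunit of the complex that makes the tRNA modification t6A, rose by 1.23 (SE 0.119) and 0.85 (SE 0.121). Its divergent neighbour APEX1, not on the list, rose by 0.72 and 0.61.

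AJUBA, a LIM-domain scaffold of cell junctions and Hippo signalling, was the member with the highest log2 fold change in clone 2. Its levels were 33.2, 33.0 and 37.3 CPM in the parental libraries, 79.3 and 70.0 in clone 4, and 74.2 and 75.5 in clone 2. The log2 fold changes of 1.11 (SE 0.105) and 1.12 (SE 0.105) were close in the clones. HAUS4, a subunit of the augmin complex that branches spindle microtubules, rose by 0.97 and 1.07. TINF2, a shelterin protein that caps telomeres, rose less, by 0.54 and 0.60.

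TM9SF1, a membrane protein of the transmembrane 9 superfamily, had few reads, at 1.07, 0.949 and 1.54 CPM in the parental libraries, 3.23 and 3.17 in clone 4, and 2.13 and 2.18 in clone 2. The log2 fold change was 1.44 (SE 0.272) in clone 4 and 0.87 (SE 0.288) in clone 2, with larger errors than for the genes above, and the clone 2 call was lost without parental replicate 1 or 2 or either clone 2 library, at 0.71 to 0.87. PCK2, the mitochondrial phosphoenolpyruvate carboxykinase, was called in clone 4 at 0.85 (SE 0.236) but not in clone 2, where it was 0.40 (SE 0.239). The clone 4 call was lost without either clone 4 library, at 0.75 and 0.94.

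**Figure D3:**
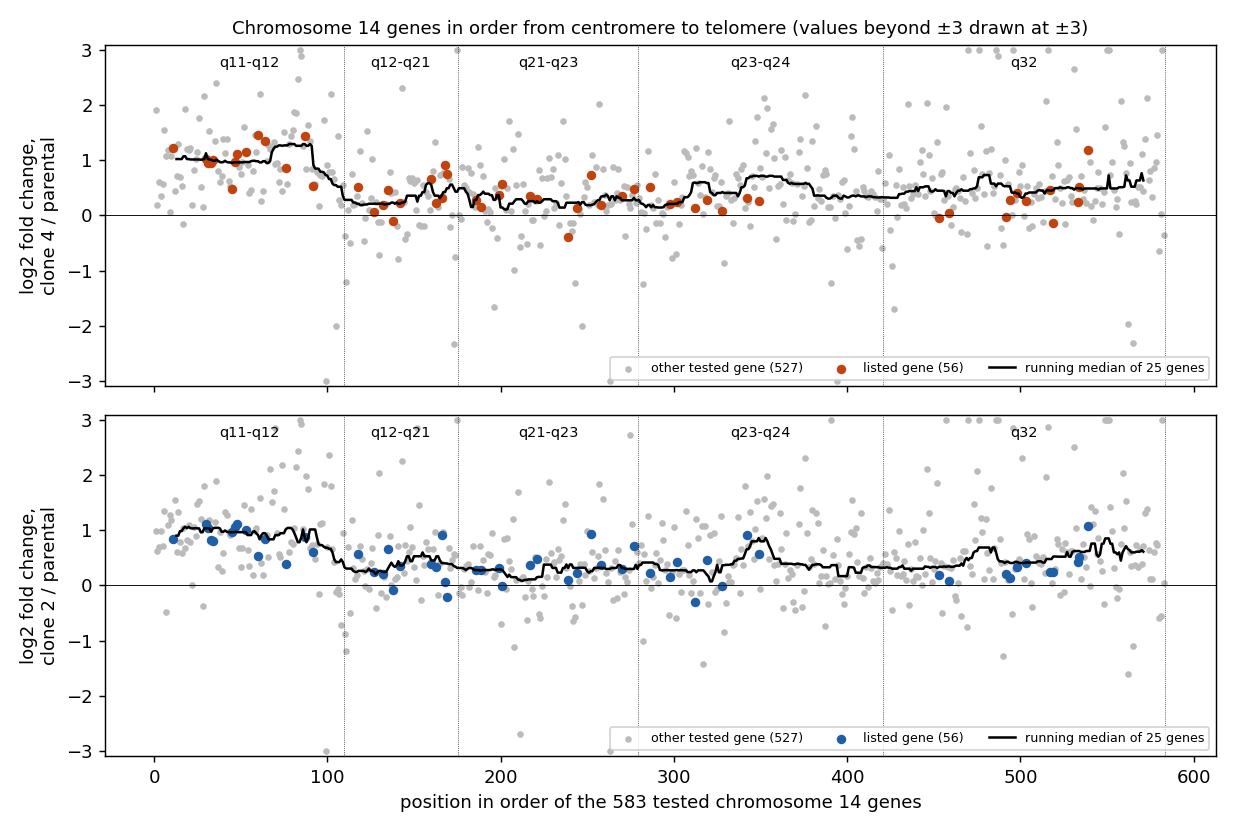
Log2 fold change against parental cells (vertical axis) of the 583 tested chromosome 14 genes in gene order from centromere to telomere (horizontal axis), for clone 4 and clone 2 in separate panels, with the listed genes in colour, values beyond ±3 drawn at ±3 and the running median of 25 genes as a line. The line lies above 0 all along the chromosome in both panels and is highest near the centromere, where it reaches 1.30 in clone 4 and 1.06 in clone 2.

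In q12-q21, 5 of 11 genes were called higher in clone 4 and 4 in clone 2, against 22.1% and 21.7% of all genes tested. STRN3, a striatin scaffold of the STRIPAK phosphatase complex, rose by 0.52 and 0.57, and BAZ1A, the large subunit of the ACF chromatin remodeller, by 0.46 and 0.66. PNN, a splicing protein that was first described at desmosomes, rose by 0.67 and 0.39, and its clone 2 call was lost without parental replicate 1 or either clone 2 library, at 0.30 to 0.42. ARHGAP5, EAPP, PSMA6 and FBXO33 were called in neither clone, with log2 fold changes from 0.06 to 0.36.

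SRP54, which reads the signal peptide in the signal recognition particle, was at 129.7, 127 and 125 CPM in the parental libraries, 133 and 105 in clone 4, and 121 and 120.5 in clone 2. Its log2 fold changes were -0.10 (SE 0.108) and -0.08 (SE 0.108), not called in either clone, and both clone 2 libraries lay just below the parental ones. SRP54 thus stayed near the parental level while its block had positive medians.

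FKBP3 and PRPF39 are neighbours that overlap on opposite strands, and their reads cannot be told apart without a strand setting. FKBP3 encodes a nuclear FK506-binding prolyl isomerase and was at 156, 161 and 191 CPM in the parental libraries, 291 and 279 in clone 4, and 148 and 144 in clone 2. PRPF39, a splicing factor associated with the U1 snRNP, was at 117, 135 and 156 CPM in the parental libraries, 242 and 272 in clone 4, and 141 and 142 in clone 2. In both, clone 4 lay far above the parental range and clone 2 lay in or below it. The log2 fold changes in clone 4 were 0.75 (SE 0.104) for FKBP3 and 0.92 (SE 0.116) for PRPF39, both called, and in clone 2 they were -0.21 (SE 0.106) and 0.06 (SE 0.118), neither called.

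Genes near that pair were looked at after these values had been seen. FAM179B had log2 fold changes of 0.77 and 0.97, and FANCM, a DNA repair helicase gene, 0.66 and 0.67. FAM179B and FANCM were called higher in both clones, so the low clone 2 values of FKBP3 and PRPF39 did not extend to them. KLHL28, a kelch-repeat protein gene close to this pair, was at 10.1, 9.25 and 11.1 CPM in the parental libraries, 13.6 and 11.6 in clone 4, and 19.3 and 18.9 in clone 2. It showed the opposite order of clones, with 0.91 (SE 0.139) called in clone 2 and 0.31 (SE 0.146) not called in clone 4. Exons of KLHL28 overlap those of FAM179B, now named TOGARAM1, on the opposite strand. Without a strand setting their reads cannot be told apart, so KLHL28 and FAM179B are not separate observations.

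In q21-q23, 7 of 12 genes were called higher in clone 4 and 8 in clone 2, against 22.1% and 21.7% of all genes tested. ARF6, a small GTPase of endocytosis and the cell cortex, was at 138, 137 and 136 CPM in the parental libraries, 167 and 166 in clone 4, and 163 and 168 in clone 2. Every resistant library lay above every parental one, by the small log2 fold changes of 0.28 (SE 0.0895) and 0.27 (SE 0.0894). The clone 4 call was kept in 2 of the 7 fits without a library and the clone 2 call in 4, at log2 fold changes of 0.24 to 0.29 where lost. ARID4A, which binds the retinoblastoma protein and recruits histone deacetylase, had the highest values of the block at 0.73 and 0.93.

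SNAPC1, a subunit of the complex that starts snRNA transcription, rose by 0.47 and 0.71. NIN, the centrosomal protein ninein, rose by 0.37 and 0.32, the pseudophosphatase gene STYX by 0.36 and 0.38, and the tRNA methyltransferase gene TRMT5 by 0.35 and 0.30. PYGL, the liver form of glycogen phosphorylase, was called in clone 4 at 0.57 (SE 0.104) and not in clone 2 at -0.01 (SE 0.107). The phospholipase gene DDHD1 and the formin gene DAAM1 were called in clone 2, at 0.48 and 0.37. In clone 4 they had 0.29 and 0.19, not called.

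Several of these smaller values lost their calls when a library was left out, often at much the same value. In clone 4, SNAPC1 was still called only without clone 4 replicate 2, and was 0.23 without replicate 1. Without clone 4 replicate 1 or parental replicate 2 the clone 4 calls of NIN at 0.25 and 0.33, STYX at 0.26 and 0.28 and TRMT5 at 0.26 and 0.31 were lost, and that of TRMT5 also without clone 2 replicate 1, at 0.33. In clone 2, NIN and TRMT5 lost their calls without parental replicate 1 or 2 or either clone 2 library, at 0.25 to 0.36 and 0.24 to 0.33. STYX and DDHD1 lost theirs without parental replicate 2 or either clone 2 library, at 0.29 to 0.39 and 0.37 to 0.51, and DAAM1 without clone 2 replicate 2, at 0.28.

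KTN1, the endoplasmic reticulum protein kinectin, had the lowest log2 fold change of all members in clone 4. It was at 170.2, 130.1 and 181 CPM in the parental libraries, 143 and 101 in clone 4, and 169.9 and 173 in clone 2. The clone 4 libraries straddled the lowest parental library, and the log2 fold change of -0.39 (SE 0.155) was not called. Without clone 4 replicate 1 it was -0.68 and called lower, and without replicate 2 it was -0.16, so its value depended on the library. An antisense gene, KTN1-AS1, overlaps its exons. SOS2, a Ras exchange factor, and EXOC5, a subunit of the exocyst, were called in neither clone, at 0.14 to 0.28.

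In q23-q24, 3 of 8 genes were called higher in clone 4, and 4 higher and 1 lower in clone 2. Among all genes tested, 22.1% were called higher in clone 4, and 21.7% higher and 20.8% lower in clone 2. MTHFD1, a folate enzyme, was called in clone 4 at 0.51 and not in clone 2 at 0.23. ACTN1, the actin crosslinker alpha-actinin 1, rose by 0.27 and 0.47, and its clone 4 call was kept in 2 of the 7 fits without a library, at 0.19 to 0.26 where lost. NUMB, an adaptor that restrains Notch, rose by 0.57 in clone 2, and its clone 4 value of 0.27 was called in 1 of the 7 fits without a library, at 0.21 to 0.29 where lost. GPHN, the gephyrin gene, was called in clone 2 at 0.43, though not without clone 2 replicate 1 or 2, at 0.37 and 0.48, and not in clone 4 at 0.24. MAX, the obligate partner of MYC, was called in neither, at 0.21 and 0.15.

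RDH11, a retinal reductase, was the member called lower in clone 2. It was at 90.8, 88.3 and 104 CPM in the parental libraries, 107 and 102 in clone 4, and 76.7 and 76.4 in clone 2. Clone 2 lay below every parental library and clone 4 within or just above their range, with log2 fold changes of -0.30 (SE 0.103) and 0.14 (SE 0.102). The clone 2 call was lost without parental replicate 3 or either clone 2 library, at -0.23, -0.32 and -0.31.

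DCAF4, a substrate receptor of CUL4 ubiquitin ligases, was at 9.90, 10.0 and 10.1 CPM in the parental libraries, 13.7 and 11.02 in clone 4, and 17.2 and 20.5 in clone 2. Its rise of 0.92 (SE 0.144) in clone 2 was the largest of the block, and its clone 4 value of 0.31 (SE 0.151) was not called. SRSF5, an SR protein of splicing, was the gene closest to parental level over both clones, at 287, 288 and 266 CPM in the parental libraries, 298 and 294 in clone 4, and 282 and 277 in clone 2. The clone 4 libraries lay just above the parental ones and the clone 2 libraries within their range, and its log2 fold changes were 0.08 (SE 0.0919) and -0.00 (SE 0.0920).

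In q32, 4 of 11 genes were called higher in clone 4 and 5 in clone 2, against 22.1% and 21.7% of all genes tested. KLC1, a light chain of the motor kinesin-1, was at 6.85, 8.24 and 9.09 CPM in the parental libraries, 17.2 and 19.6 in clone 4, and 15.6 and 18.2 in clone 2. With log2 fold changes of 1.18 (SE 0.154) and 1.07 (SE 0.154) it stood apart from the other members of its block. Its exons overlap AL139300.1 on the same strand, whose reads cannot be told apart from its own. They also overlap BAG5 and XRCC3 on the opposite strand, whose reads cannot be told apart without a strand setting. MARK3, a polarity kinase, rose by 0.51 and 0.52, and CCNK, the cyclin of CDK12 and CDK13, by 0.42 and 0.34. DYNC1H1, the dynein heavy chain, was called in clone 4 at 0.46 and not in clone 2 at 0.24.

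The translation factor gene EIF5 and EVL, an Ena/VASP actin regulator, were called in clone 2, at 0.43 and 0.40, and had 0.25 and 0.25 in clone 4, not called. Without clone 2 replicate 2 the call of EIF5 was lost at 0.40, without clone 2 replicate 1 or parental replicate 1 that of EVL at 0.27 and 0.37, and without any of parental replicates 1 and 2 and the clone 2 libraries that of CCNK at 0.28 to 0.33. HSP90AA1, the inducible HSP90 chaperone, was the most abundant of the named members, at 1221, 1005 and 1639 CPM in the parental libraries, 1296 and 1058 in clone 4, and 1511 and 1544 in clone 2. The parental libraries spanned the values of all resistant ones, and the log2 fold changes of -0.13 (SE 0.164) and 0.25 (SE 0.163) were not called. The golgin genes TRIP11 and GOLGA5, the poly(A) polymerase gene PAPOLA and the chromatin kinase gene VRK1 were called in neither clone, with values from -0.05 to 0.27.

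**Figure D4:**
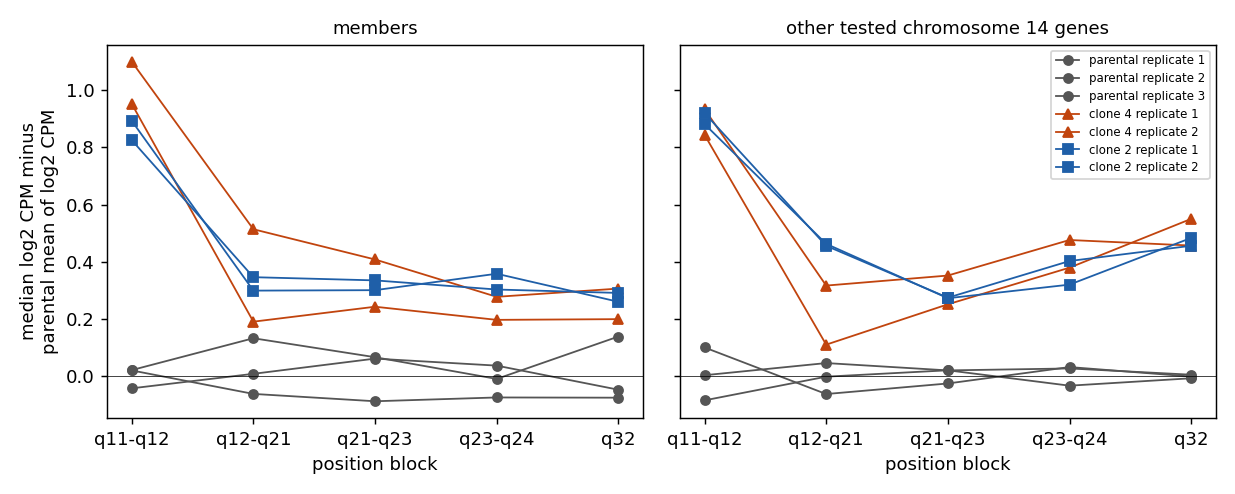
Median log2 difference from the parental mean (vertical axis) in each of the 7 libraries for the 5 blocks of chromosome 14 (horizontal axis), shown separately for the listed genes and for the other tested genes of the block. Both panels are highest in q11-q12, where the resistant libraries lie between 0.83 and 1.10. The parental libraries lie between -0.09 and 0.14 over all blocks. For the listed genes, parental replicate 3 comes close to clone 4 replicate 2 in q12-q21, at 0.13 and 0.19, and in q32, at 0.14 and 0.20.

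By role, 8 of 10 genes for chromatin and transcription were called higher in clone 4 and 8 in clone 2, with median log2 fold changes of 0.47 and 0.77. For 7 RNA processing genes, 5 and 4 were called higher, with medians of 0.92 and 0.39. Of 8 signalling and adhesion genes, 6 and 6 were called higher, with medians of 0.32 and 0.45. Cytoskeleton, motor and Golgi genes gave 6 and 7 of 12, at medians of 0.26 and 0.35, and translation and tRNA genes 3 and 4 of 5, at 0.35 and 0.43. Among 6 genes for protein folding and turnover, 1 and 2 were called higher, at 0.27 and 0.35, and among 6 metabolic genes 3 and 2 were higher and, in clone 2, 1 lower, at 0.40 and 0.31. Over all genes tested, 22.1% were called higher in clone 4 and 21.7% in clone 2. These roles are unevenly spread over the blocks, and their values were not tested apart from position.

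The 527 other tested genes of chromosome 14 did not enter the choice by name. In clone 4, 294 of them were called higher and 23 lower, at a median of 0.51 on the log2 scale. Clone 2 had 281 higher and 28 lower, at 0.47. Among all genes tested, 22.1% were called higher and 22.3% lower in clone 4, and 21.7% and 20.8% in clone 2. In all, 439 and 435 of the 527 genes lay above 0. The medians of the listed genes, 0.36 and 0.39, were lower than these, and that difference was not tested. Over all genes that are not on chromosome 14 the medians were -0.01 and 0.00. These genes belong to the same contrasts by which the list was chosen, so their counts are a description too.

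The other genes were assigned to blocks by limits midway in gene order between neighbouring members of adjoining blocks. A block can therefore hold other genes from outside the bands in its name. By block, the other genes were again highest in q11-q12, where 73 of 95 were called higher in clone 4 and 74 in clone 2. Their medians there were 0.93 and 0.95. Among all genes tested, 22.1% and 21.7% were called higher. In q12-q21, 20 and 23 of 55 were higher, at 0.21 and 0.44, and in q21-q23, 37 and 33 of 92, at 0.27 and 0.26. Further out, 73 and 64 of 133 genes were higher in q23-q24, at 0.41 and 0.37, and 91 and 87 of 152 in q32, at 0.49 and 0.49. The listed genes of q32 had medians of 0.25 and 0.25, lower than those of their neighbours, a difference that was not tested. A running median over 25 genes stayed between 0.11 and 0.49 in clone 4 across q21-q23 and between 0.09 and 0.38 in clone 2, from 0.14 to 0.72 and from 0.07 to 0.86 across q23-q24, and from 0.32 to 0.77 and from 0.27 to 0.85 across q32.

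**Figure D5:**
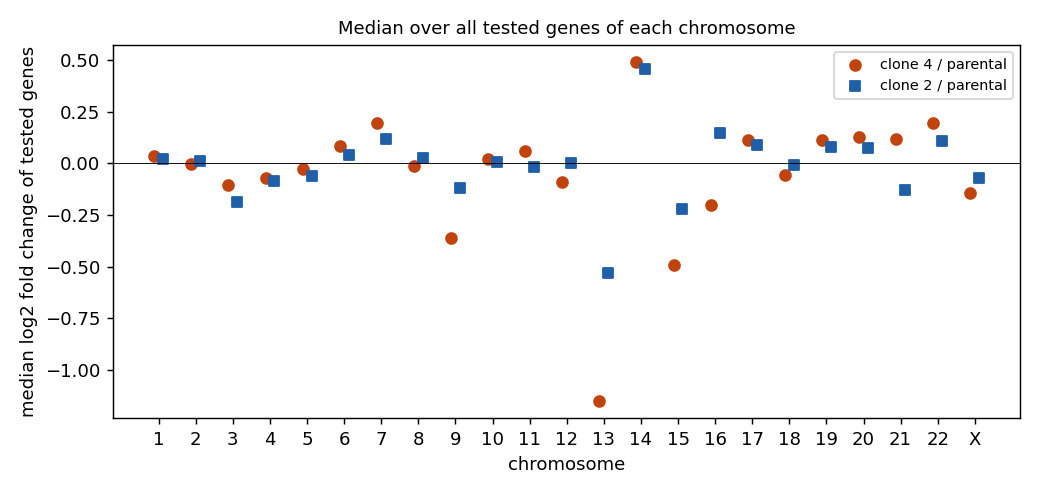
Median log2 fold change against parental cells (vertical axis) of the tested genes of each chromosome (horizontal axis), with circles for clone 4 and squares for clone 2. Chromosome 14 has the highest median in both, at 0.49 and 0.46, and the next chromosome in each is at 0.20 and 0.15.

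Set against the other chromosomes, the 583 tested genes of chromosome 14 had the highest median of 23 in both clones. In clone 4 it was 0.49, followed by chromosomes 22 and 7 at 0.20 each. In clone 2 it was 0.46, followed by chromosome 16 at 0.15 and chromosome 7 at 0.12. Other chromosomes shifted downwards. Chromosome 13 had the lowest median in both clones, at -1.15 and -0.53, with 83.5% and 56.8% of its genes called lower. Chromosome 15 was next lowest, at -0.49 and -0.22, with 56.1% and 37.6% called lower. Of the chromosome 14 genes, 56.1% were called higher in clone 4 and 54.0% in clone 2, against 22.1% and 21.7% of all genes tested.

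Between the clones, 5 members were called higher and 7 lower in clone 2 than in clone 4, against 19.6% and 17.0% of all genes tested (36.5% together), with a median log2 fold change of 0.03. Higher in clone 2 were DCAF4 by 0.61, KLHL28 by 0.60, PRMT5 by 0.50, KTN1 by 0.49 and NUMB by 0.30 on the log2 scale. Lower in clone 2 were FKBP3 at -0.97 (SE 0.116), PABPN1 at -0.92 (SE 0.121), PRPF39 at -0.86 (SE 0.130), PYGL at -0.58, NGDN at -0.52, RDH11 at -0.44 and OSGEP at -0.38. FKBP3, PABPN1, PRPF39 and PYGL kept the call in all 7 fits without a library. The other 8 lost it in at least 1 of them. Where it was lost, the values were 0.29 to 0.50 for PRMT5 and 0.25 to 0.50 for KTN1, lowest without clone 4 replicate 2 in both, 0.48 to 0.61 for KLHL28, 0.45 and 0.48 for DCAF4, and 0.25 to 0.35 for NUMB. They were -0.41 to -0.27 for OSGEP, -0.45 for NGDN and -0.44 for RDH11.

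The other chromosome 14 genes differed between the clones in both directions as well, with 85 of 527 higher and 96 lower in clone 2, which is 16.1% and 18.2% beside the 19.6% and 17.0% of all genes tested, and a median of -0.03. Leaving out clone 4 replicate 1 gave a member median of 0.11, and leaving out replicate 2 gave -0.054, so its sign depended on the library.

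Across the 7 libraries, each member was compared with the mean standardised profile of the other members by Pearson correlation of log2 CPM. This is a description over libraries that share groups. The median correlation was 0.862. CHD8 followed the common profile most closely, at 0.983, and SRP54 least, at -0.24. Non-members were compared with the mean profile of all members. The most alike was BMS1, a ribosome assembly GTPase on chromosome 10, at 0.998. Next came the RNA sensor DDX58 on chromosome 9 and the antiviral zinc finger gene ZC3HAV1 on chromosome 7, each at 0.995. The ubiquitin-like modifier enzyme gene UBA7 on chromosome 3 and the transcription factor gene BATF2 on chromosome 11 were each at 0.992. BMS1 was at 79.0, 72.6 and 77.0 CPM in the parental libraries, 115 and 100.4 in clone 4, and 109 and 111 in clone 2. Of the 5 most alike genes 0 lay on chromosome 14, and of the 100 most alike 16 did, against 527 of all 17446 tested genes off the list, or 3.02%. The profile comes from members picked with these contrasts known, so nothing is read from that difference.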

How the data were processed

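Total RNA of 7 T47D libraries was sequenced (3 parental, 2 clone 4, 2 clone 2), grouped by their labels, with totals of 10997625 to 17524621 counts. The authors deposited whole-number read counts per Ensembl gene. Per the submitters' processing notes, reads went through CASAVA, FastQC and the aligner STAR, versions unstated, on the build hg19. Which program and annotation made the counts, and with which strand setting, is not given in the sources used here. The labels call the libraries biological replicates without saying that they were separate cultures, so p-values measure the spread between libraries, which may be technical. Genes without a name (6724 of 63677) took 1.02% to 1.41% of counts, and they stayed in the table as Ensembl genes.

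Tests used edgeR 4.0.16 under R 4.3.3, with a low-count filter (filterByExpr, minimum 10), TMM scaling and a robust quasi-likelihood fit of 3 group means to all 7 libraries, which share 1 estimate of the spread. A gene was called at an adjusted p below 0.05 (Benjamini-Hochberg over 17502 genes). The common biological coefficient of variation was 0.0997. Standard errors of log2 fold changes came from the quasi-F statistic. Chromosome, gene order and exon overlap came from GENCODE release 29 by Ensembl ID, which left 561 tested genes unmatched. Its coordinates belong to another build and were not joined to the counts.

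Members, blocks, roles and marker lists were chosen with earlier results of these data known. Members given library by library were the 3 highest and 3 lowest by log2 fold change in each contrast and the most abundant of each block. Other chromosome 14 genes were named if among the 3 highest or 3 lowest called per contrast at a mean of at least 2 log2 CPM. Alternatives were RLE scaling, TMM without chromosome 14, DESeq2 1.42.0, no filter, a stricter filter (1 CPM, 50 counts), a test against a fold of 1.2, fits of the compared groups alone, a replicate block, leaving out each library, and, added after the data were seen, protein-coding genes alone.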

Additional observations from a re-analysis of the deposited data

Results flagged for a closer look

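For 12 of the 56 genes, the difference between the clones was itself called in edgeR's quasi-likelihood test of clone 2 against clone 4. Of all genes tested, 36.5% were called in this comparison, a larger share than among the members. The members were chosen with these data known. On the log2 scale, clone 2 minus clone 4 was -0.97 for FKBP3, -0.92 for PABPN1, -0.86 for PRPF39, -0.58 for PYGL, -0.52 for NGDN, -0.44 for RDH11 and -0.38 for OSGEP. It was 0.61 for DCAF4, 0.60 for KLHL28, 0.50 for PRMT5, 0.49 for KTN1 and 0.30 for NUMB.

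FKBP3, PABPN1, PRPF39 and PYGL were called in all 7 fits that left out a library, NGDN in 6, RDH11 and DCAF4 in 5, OSGEP, PRMT5, KLHL28 and KTN1 in 4, and NUMB in 2. FKBP3 and PRPF39 share exon sequence on opposite strands, and PABPN1 shares exons with a read-through gene. The part of those overlaps in the differences was not tested.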

How the results depend on the processing

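No call changed direction under any alternative that was run, but the member median between the clones, 0.03, was -0.054 without clone 4 replicate 2. The 1 member called lower in clone 4 by DESeq2, with no filter, with a replicate block, or without parental replicate 2 or clone 4 replicate 1 was KTN1, against 0 otherwise. In clone 2, 0 members were called lower with the replicate block or the test against a fold of 1.2, in place of 1. Between the clones, that test called 2 members higher in place of 5, and a fit of the compared groups alone called 11 lower in place of 7. The median of the other chromosome 14 genes in clone 4 was 0.47 with no filter and 0.49 with the stricter filter or the block, against 0.51. In clone 2 it was 0.45 with RLE or DESeq2 and 0.44 with no filter, against 0.47. Between the clones it was -0.057 with RLE, -0.064 with the compared groups alone and -0.053 with DESeq2, against -0.03. Against a fold of 1.2, 14 of these genes were called lower in clone 4 and 15 in clone 2, and between the clones 55 higher and 60 lower.

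Leaving out each library gave member medians of 0.27 to 0.45 in clone 4, 0.37 to 0.43 in clone 2 and -0.054 to 0.11 between the clones. Members called higher numbered 24 to 34, 23 to 37 and 0 to 6, and lower 0 to 1, 0 to 1 and 4 to 10. For the other chromosome 14 genes the medians were 0.49 to 0.51, 0.46 to 0.48 and -0.054 to -0.00032. Counts higher were 244 to 291, 186 to 288 and 39 to 105, and lower 10 to 30, 12 to 30 and 49 to 109. The shares of all genes called under the alternatives and in these fits are not given here. Nothing is therefore read from these counts about the listed genes or the chromosome. Fewer libraries entered each such fit, and the cause of these changes was not tested.

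Replicate numbers are those of the labels' descriptions, while the titles of the clone 2 libraries carry 4 and 6 for replicates 1 and 2. They were not taken to pair the libraries. Deviations from group means of same-numbered libraries correlated at 0.186 and 0.115 for parental and clone 4. The values were 0.00915 and -0.0148 for parental and clone 2, and -0.0776 for the clones. The deviations of a clone's 2 libraries mirror each other, so these correlations cannot settle whether the libraries were paired. With 2 libraries per clone, small fold changes rest on few samples.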

Other observations

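Some other genes of chromosome 14 changed far more than any listed gene. IFI27, an interferon-induced gene of q32, was at 3.55, 3.86 and 2.05 CPM in the parental libraries, 434 and 399 in clone 4, and 1056 and 977 in clone 2. C14orf132 in q32 was at 3.63, 3.02 and 2.64 CPM in the parental libraries, 28.9 and 27.0 in clone 4, and 60.0 and 66.4 in clone 2. REC8, a meiotic cohesin gene of q11-q12, was at 1.57, 2.97 and 1.39 CPM in the parental libraries, 12.1 and 18.4 in clone 4, and 16.1 and 15.2 in clone 2. In all 3 the resistant libraries lay several-fold above every parental library.

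Losses of RNA occurred on the same chromosome. AHNAK2, which encodes a very large scaffold-like protein, was at 169.6, 172 and 153 CPM in the parental libraries, 45.8 and 38.3 in clone 4, and 54.8 and 52.9 in clone 2. GPR132, a G protein-coupled receptor gene, was at 14.4, 21.4 and 15.8 CPM in the parental libraries, 3.09 and 3.92 in clone 4, and 7.42 and 8.61 in clone 2. Both fell in both clones, and both lie in q32, where most called genes were higher. In clone 2 the pseudogene BNIP3P1 also fell, at a log2 fold change of -0.88.

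The clones parted at several of these genes. FOS, an AP-1 transcription factor gene, was at 15.3, 9.19 and 8.14 CPM in the parental libraries, 5.98 and 3.01 in clone 4, and 163 and 154 in clone 2. GALC, the lysosomal galactosylceramidase gene, was at 22.2, 18.6 and 14.1 CPM in the parental libraries, 6.53 and 4.67 in clone 4, and 24.5 and 30.5 in clone 2. FOS was high in clone 2 alone by its values, and GALC was low in clone 4 alone. EGLN3, an oxygen-dependent prolyl hydroxylase gene, was 2.75 higher on the log2 scale in clone 2 than in clone 4, whereas ACYP1, the RNase P RNA gene RPPH1 and the RNA-binding protein gene NOVA1 were -1.56, -1.56 and -1.51.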
